A study of Arabidopsis thaliana with 23 samples.

Results

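Mature microRNAs (miRNAs) were compared between sos2-2 and wild-type Arabidopsis thaliana seedlings kept on MS, a standard plant culture medium, in 6 of the 23 libraries of the series. Every mature miRNA of the deposited small RNA table was taken, and the 5p and 3p products of a hairpin were kept apart. That gave 428 miRNAs in 215 families, of which 293 averaged at least 1 RPM (a read count scaled to a common library total) over the 12 small RNA libraries and were tested. The sos2-2 group had 3 small RNA libraries and the wild-type group had 3. Both groups were whole seedlings that had spent 2 days in the cold and then 10 days under constant light on MS with sucrose. The sos2-2 seedlings carried a mutant allele of SOS2, a protein kinase that helps plants export sodium. The samples of the other group are labelled WT, the design text names gl1, and the labels do not say whether these are the same line. The lesion of the allele is not given in the labels. Values from libraries of both genotypes treated for 12 hours with 100 mM NaCl in liquid MS are given beside those on MS where both are of interest. Nothing in the labels says that the replicates of a group were grown apart, and a p-value then covers only the variation among these libraries, some of which may be technical.

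In plants, the nuclease DCL1 cuts miRNAs out of hairpin transcripts with the help of SERRATE (SE), a zinc-finger protein that the series title names together with SOS2. A hairpin yields a duplex with a 5p and a 3p strand, of which usually one is loaded into an ARGONAUTE protein and guides it to mRNAs with nearly complete pairing. Conserved families such as miR156, miR164 and miR319 set the timing and shape of organs by lowering transcription factor mRNAs. Most other families are young, occur in few species, and often have low levels and few known targets.

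The mature sequences of the miRNAs on which the results turn are printed 5′ to 3′ from the RefSeq annotation of TAIR10.1, in which 427 of the 428 listed miRNAs had a sequence. Bases 2 to 8, the seed, are in capitals.
miR774a: uUGGUUACccauauggccauc
miR843: uUUAGGUCgagcuucauugga
miR156a-5p: uGACAGAAgagagugagcac
miR156g: cGACAGAAgagagugagcac
miR157a-5p: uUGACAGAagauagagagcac
miR164c-5p: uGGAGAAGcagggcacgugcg
miR164c-3p: cACGUGUUcuacuacuccaac
miR3932a: aACUUUGUgaugacaacgaag
miR5633: uAUGAUCAucagaaaacagug
miR5642b: uCUCGCGCuuguacggcuuu
miR863-5p: uUAUGUCUuguugaucucaau
miR863-3p: uUGAGAGCaacaagacauaau
miR172b-3p: aGAAUCUUgaugaugcugcau
miR395d: cUGAAGUGuuugggggaacuc
miR319a: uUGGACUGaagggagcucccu
The first of the miR156 sequences is shared letter for letter by miR156a-5p, b-5p, c-5p, d-5p, f-5p and miR156e, and miR156g differs from it at 1 of 20 positions, outside the seed. miR5642b has the same sequence as miR5642a, and miR3932a the same as miR3932b-3p. In all, 123 of the listed miRNAs fell into 45 groups of identical mature sequence. In 29 of the 35 groups with at least 2 tested members, the highest mean on MS was under 1.5 times the lowest, so such members are not independent measurements.

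The library totals recovered from the RPM steps were 17361900 to 18798200 reads for sos2-2 and 16690800 to 18627700 reads for wild type, so 1 RPM stood for 16.69 to 18.80 reads. The listed miRNAs summed to 103030 ± 5899 RPM in sos2-2 and 98588.5 ± 13717 RPM in wild type (SD, n = 3 each; exact two-sided permutation p = 0.8, where the smallest possible p is 0.1). Wild-type replicate 1 had the lowest sum, 83725 RPM, against 101281 and 110760 RPM in the other wild-type libraries. Correlations of log2(RPM + 1) between libraries over the 293 miRNAs were 0.993 to 0.997 within sos2-2, 0.996 to 0.998 within wild type and 0.989 to 0.995 between the genotypes. The SOS2 transcript itself was not lower in the mutant, with 1.36 and 1.24 TPM (a transcript level scaled for length and library total) in sos2-2 against 1.17, 0.880 and 1.21 TPM in wild type, so its level does not check the label. The 5 shoot and 5 root markers were all detected in each of the 5 mRNA libraries on MS, as whole seedlings should show. RHD6, at 0.190 to 0.694 TPM, was too low to be tested. The summed shoot markers were 4534 and 5080 TPM in sos2-2 against 8898 to 10624 TPM in wild type, and the summed root markers 610.005 and 623 TPM against 629 to 928 TPM. The shoot sum was mostly RBCS1A, a subunit of Rubisco, with 4046 and 3017 TPM in sos2-2 against 8438, 6947 and 9154 TPM in wild type (limma adjusted p = 0.0449). The 4 other shoot markers were not called. LHCA1, with 170 and 298 TPM against 370, 525 and 421 TPM, and PSBO1 lay below wild type without overlap. LHCB1.1 had a log2 difference of −0.56 with overlapping groups. LHCB2.1, a light-harvesting protein, ran the other way, with 358 and 509 TPM against 306, 424 and 257 TPM. The root sum was nearly all BGLU23, with 594 and 611 TPM against 902, 605 and 856 TPM. Of the root markers with low levels, SCR had 8.62 and 5.59 TPM against 15.3, 15.1 and 14.7 TPM (limma adjusted p = 0.0527). COBL9 and SHR also lay below wild type without overlap, while BGLU23 and RHD6 overlapped, and no root marker was called. Of all genes, 22.7% lay below without overlap. In such bulk samples, fewer cells of a type and less RNA per cell cannot be told apart, and the part of these markers in the miRNA results was not tested.

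Most miRNAs had similar levels in the 2 genotypes: the median difference, sos2-2 minus wild type on the log2(RPM + 1) scale, was 0.01 with quartiles at −0.11 and 0.13. With limma and an adjusted p (Benjamini-Hochberg) under 0.05, 13 of 293 miRNAs (4.44%) were called. Of these, 11 rose in sos2-2 (3.75%) and 2 fell (0.683%). A further reading without a test gave 36 of 293 miRNAs (12.3%) whose 3 sos2-2 libraries did not overlap the 3 wild-type libraries, 28 of them above (9.56%) and 8 below (2.73%). The 11 that rose were miR156a-5p, b-5p, c-5p, d-5p, f-5p, miR156e, miR156g, miR843, miR164c-3p, miR5633 and miR5642b. The 2 that fell were miR774a and miR3932a. The split between directions moved with the scaling: it was 14 higher and 10 lower after rescaling to the total of listed miRNAs, 15 and 8 with edgeR on the recovered reads, and 16 and 8 with DESeq2. Without wild-type replicate 1, 2 miRNAs were called, miR774a and miR863-5p, both lower in sos2-2. The count was 3 and 5 without sos2-2 replicate 3 and 2, and up to 16 without other libraries.

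**Figure D1:**
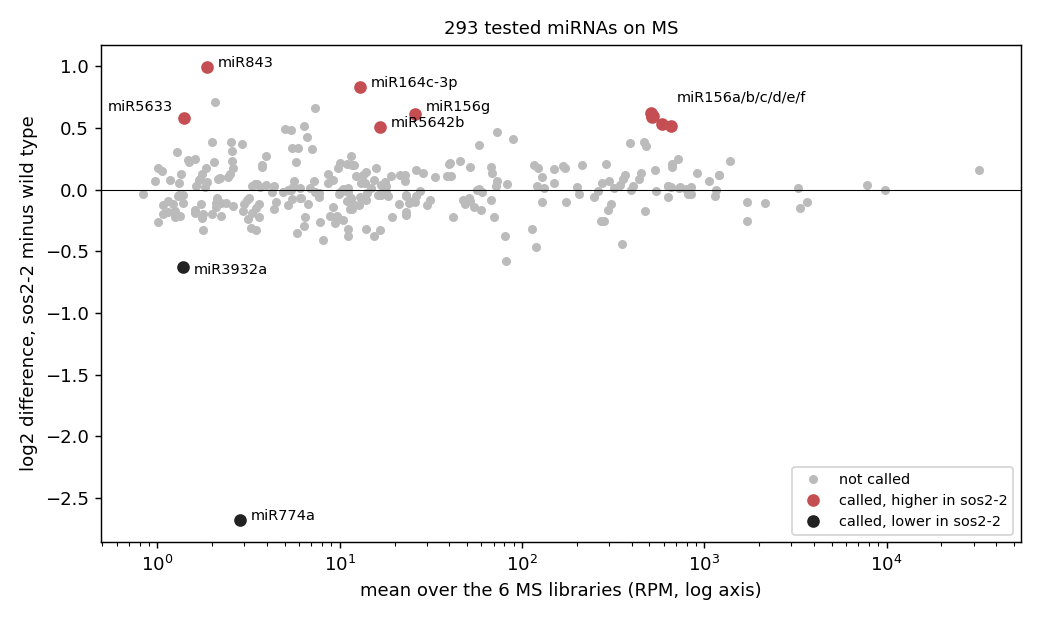
Each point is 1 of the 293 tested miRNAs, placed by its mean over the 6 MS libraries (RPM, log axis) and by its log2 difference, sos2-2 minus wild type. The called miRNAs are coloured; miR774a lies alone at −2.67, while all other tested miRNAs lie between −0.63 and 0.99.

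The largest difference was that of miR774a, a young miRNA known to pair with the mRNA of an F-box gene. It was at 0, 0.115 and 0 RPM in sos2-2 against 5.69, 5.63 and 5.53 RPM in wild type. These values stood for 0, 2 and 0 reads in sos2-2 and for 106, 94 and 102 reads in wild type. The mutant libraries were thus at or next to 0, while the wild-type libraries lay close together. Over the summed reads the sos2-2 rate was 0.659% of the wild-type rate, with an exact 95% interval of 0.0794% to 2.40% that covers counting error only. The log2 difference was −2.67 (SE 0.14, limma adjusted p = 6.92e-13), a value that the pseudocount of 1 holds down, and −7.03 with edgeR on the reads. It stayed called in each of the 16 alternatives that tested it. After NaCl the pattern was the same, with 2, 0 and 1 reads in sos2-2 against 120, 112 and 139 reads in wild type.

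The hairpin MIR774a lies on the plus strand of chr1:22149936-22150033 and overlaps no other annotated gene. It is printed here whole because its product is the member that almost vanished; the mature miR774a at chr1:22150005-22150025 is in capitals.
MIR774a: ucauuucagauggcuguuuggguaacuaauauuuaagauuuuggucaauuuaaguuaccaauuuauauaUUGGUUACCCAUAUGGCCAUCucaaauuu
MIR774b, on the same strand at chr1:22150128-22150266, gives 2 listed products. miR774b-5p had no read on MS in either genotype, and miR774b-3p had 1 read, in wild type, so neither was tested. The nearest protein-coding genes, named after their values were seen, were AT1G60070, 409 bases upstream, and AT1G60080, 2197 bases downstream. AT1G60070 had 8.52 and 6.26 TPM in sos2-2 against 10.2, 7.73 and 9.59 TPM in wild type, and AT1G60080 had 2.19 and 1.62 TPM against 2.04, 1.94 and 1.68 TPM. Both genes had overlapping groups and were not called (limma adjusted p = 0.497 and 0.996).

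miR843 had the largest rise. This young miRNA was at 1.73, 3.92 and 2.93 RPM in sos2-2 against 0.591, 1.08 and 1.03 RPM in wild type. The lowest mutant library was above the highest wild-type library, on 31, 68 and 55 reads against 11, 18 and 19. The ratio of the means was 3.18, and the difference 0.99 on the log2(RPM + 1) scale (SE 0.19, limma adjusted p = 0.00587). Without wild-type replicate 1 it was 0.87 and just missed the threshold. MIR843 lies on the plus strand of chr3:17742098-17742302, between SUO and AT3G48060, and overlaps neither. SUO, 2228 bases upstream, had 11.6 and 9.22 TPM in sos2-2 against 7.08, 4.84 and 6.52 TPM in wild type, and AT3G48060, 687 bases downstream, had 6.23 and 4.98 TPM against 3.76, 3.22 and 3.88 TPM. Neither neighbour, named after its values were seen, was called (limma adjusted p = 0.109 and 0.160). Both lay above wild type without overlap, as did the next coding genes on either side, AT3G48030, ROP10, AT3G48070 and AT3G48080. None of these was called, and AT3G48080 was below the filter. Of all genes, 16.8% lay above without overlap. Whether these genes and miR843 share a cause was not tested.

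Summed over families, the same 2 miRNAs gave the only calls: miR774 fell and miR843 rose, 2 of 140 families tested (1.43%), 1 in each direction (0.714%).

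The most abundant of the called miRNAs were those of miR156, which lowers the mRNAs of SPL transcription factors and keeps plants juvenile. miR156a-5p was at 582, 718 and 568 RPM in sos2-2 against 313, 484 and 450.2 RPM in wild type. The mutant libraries lay above all wild-type libraries, and wild-type replicate 1 was the lowest by a wide margin. The mean was 623 ± 83.0 RPM in sos2-2 and 416 ± 90.9 RPM in wild type (SD, n = 3 each), a log2 difference of 0.60 (SE 0.15, limma adjusted p = 0.0333). The other 5 loci with the identical sequence had differences between 0.51 and 0.62 and were called too, which repeats the same molecules. Counted once, as the sum of the 6 loci, the sequence had 3944 ± 483 RPM in sos2-2 and 2686 ± 584 RPM in wild type, and the difference of 0.57 was not called (limma adjusted p = 0.0751). miR156g, the separate sequence with the same seed, was at 28.7, 36.3 and 28.8 RPM in sos2-2 against 14.4, 23.7 and 23.4 RPM in wild type, and its log2 difference was 0.61 (SE 0.17, limma adjusted p = 0.0413). That adjustment took each of the identical loci as a separate test. With identical sequences summed, 3 of 239 sequences were called, 2 higher and 1 lower. The smallest p-values of the main test belonged to miR774a, miR843 and miR164c-3p, ahead of miR156g.

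Without wild-type replicate 1 the difference of miR156a-5p was 0.41 and that of miR156g 0.39, and neither was called. The remaining miR156 miRNAs were not called. Among them, miR156h averaged 1.91 RPM in sos2-2 and 2.26 RPM in wild type, and miR156j 2.36 and 1.62 RPM. The 3p strands miR156a-3p and miR156c-3p averaged 702 and 709 RPM in sos2-2 against 623 and 617 RPM in wild type, with overlapping groups. As a family miR156 summed to 5583 ± 656 RPM in sos2-2 and 4151 ± 832 RPM in wild type (log2 difference 0.44, limma adjusted p = 0.103). miR157, whose guide strand carries the same core shifted by 1 base, was not called: miR157a-5p averaged 182 ± 3.39 RPM in sos2-2 and 164.7 ± 43.0 RPM in wild type. The seed GACAGAA was shared by 11 tested miRNAs of miR156 and miR157, of which 7 were called higher and none lower, beside 3.75% higher over all tested miRNAs. Of these 7, 6 are the sequence that was not called when counted once.

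**Figure D2:**
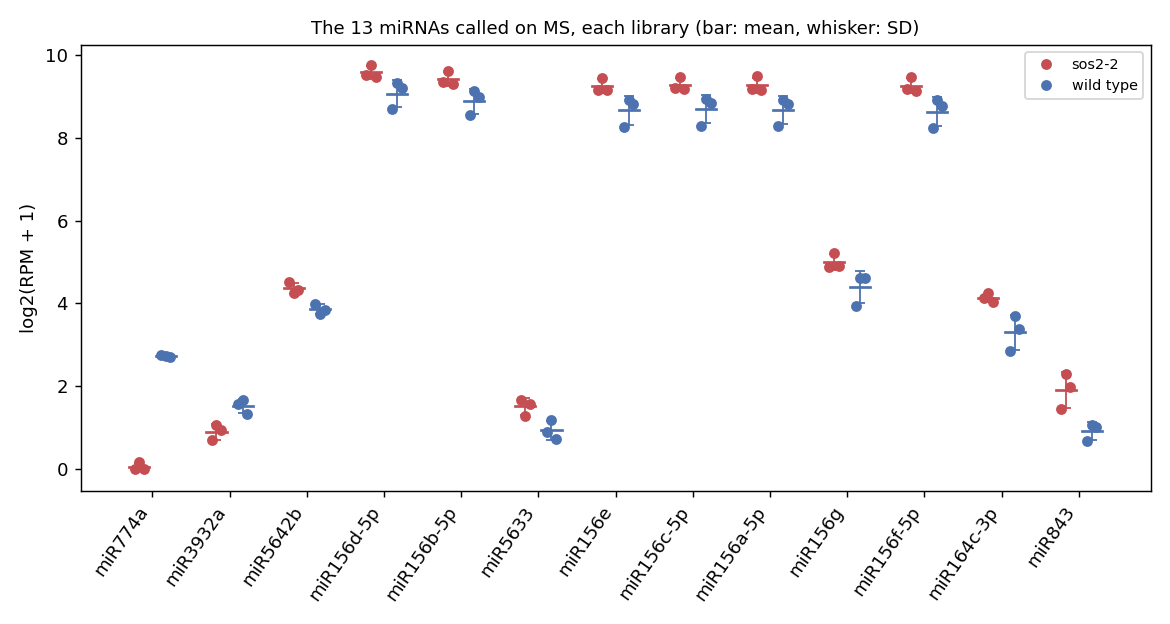
Levels of the 13 called miRNAs in each MS library as log2(RPM + 1), with sos2-2 in red and wild type in blue; bars are means and whiskers SD (n = 3 each). The groups do not overlap for any of the 13, and the lowest wild-type point of each miR156 miRNA is replicate 1.

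miR164c-3p, the passenger strand of a hairpin whose 5p guide lowers NAC transcription factors of organ boundaries, was at 16.6, 17.9 and 15.4 RPM in sos2-2 against 6.17, 11.9 and 9.44 RPM in wild type. The 3 mutant libraries lay close together above all of the wild-type libraries. The log2 difference was 0.83 (SE 0.17, limma adjusted p = 0.00819), and 0.60 without a call when wild-type replicate 1 was left out. The guide strand miR164c-5p did not follow: it averaged 27.1 ± 0.933 RPM in sos2-2 and 25.1 ± 7.98 RPM in wild type (log2 difference 0.16, limma adjusted p = 0.845). Both strands can be seen in the hairpin on the plus strand of chr5:9852674-9852775, where capitals mark first the 5p and then the 3p product.
MIR164c: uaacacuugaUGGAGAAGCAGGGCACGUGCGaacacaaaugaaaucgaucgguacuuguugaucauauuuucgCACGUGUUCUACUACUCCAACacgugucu

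The balance between the arms, log2 of 5p over 3p within each library, does not depend on the scaling of a library, apart from the pseudocount of 1. Of 69 hairpins with both arms tested, 4 (5.8%) changed their balance, 3 towards 5p (4.35%) and 1 towards 3p (1.45%). The median shift was −0.01. Without a test, 8 of the 69 (11.6%) lay above wild type without overlap and 9 (13%) below. For miR164c the balance was 0.66, 0.63 and 0.75 in sos2-2 against 1.35, 1.41 and 1.30 in wild type. The 3p strand thus made up more of the product in every mutant library, and the shift was −0.68 (SE 0.13, limma adjusted p = 0.00927). For miR167c, of a family that lowers auxin response factors, the balance was 0.15, 0.18 and 0.12 in sos2-2 against −0.27, −0.36 and −0.14 in wild type. Here the 5p strand outweighed the 3p strand in sos2-2 and was outweighed by it in wild type (shift 0.41, SE 0.08, limma adjusted p = 0.00927). Neither strand was called by itself, with log2 differences of 0.19 for miR167c-5p and −0.22 for miR167c-3p.

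The hairpin of miR472, which starts secondary siRNAs from disease resistance genes, shifted by 0.40 towards 5p (SE 0.09, limma adjusted p = 0.0225). That of miR156b shifted by 0.63 towards 5p (SE 0.14, limma adjusted p = 0.0158), but its 5p sequence is shared with 5 other loci, so this shift is not that of MIR156b alone. Leaving out single libraries ended the call for miR472 in 4 of 6 cases and for miR156b in 3 of 6, while miR164c and miR167c stayed called in all 6.

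**Figure D3:**
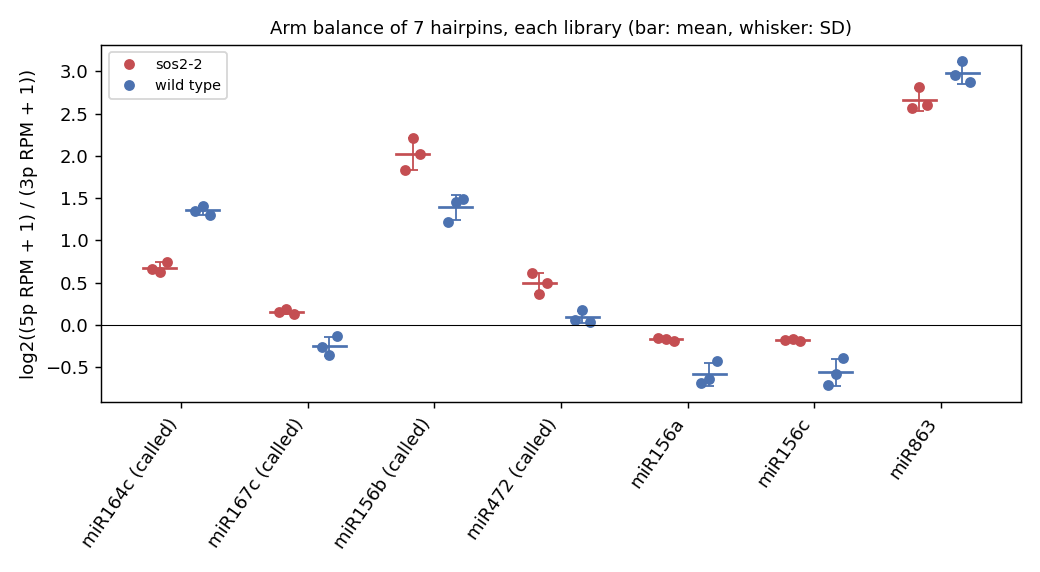
Arm balance, log2((5p RPM + 1) / (3p RPM + 1)), of 7 hairpins in each MS library, with sos2-2 in red and wild type in blue; bars are means and whiskers SD (n = 3 each). The first 4 hairpins were called. Of these, miR164c is lower in sos2-2 and the other 3 are higher, with no overlap of the groups. The groups of miR156a, miR156c and miR863, which were not called, do not overlap either. Of all 69 hairpins, 11.6% lay above and 13% below without overlap.

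The other called miRNAs had low levels or a twin of the same sequence. miR3932a was at 0.615, 1.09 and 0.904 RPM in sos2-2 against 1.99, 2.16 and 1.52 RPM in wild type (log2 difference −0.63, SE 0.15, limma adjusted p = 0.0333). Its 11, 19 and 17 reads in sos2-2 stood against 37, 36 and 28 in wild type. Summed with miR3932b-3p, its twin, the sequence had 3.69 ± 0.367 RPM in sos2-2 and 5.61 ± 0.774 RPM in wild type, and the difference of −0.49 was not called (limma adjusted p = 0.132). miR5633 was at 2.18, 1.44 and 1.97 RPM in sos2-2 against 0.859, 1.26 and 0.651 RPM in wild type (log2 difference 0.58, SE 0.16, limma adjusted p = 0.0419). miR3932a and miR5633 each lost their call in 5 of 16 alternatives.

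miR5642b was at 22.0, 18.1 and 18.9 RPM in sos2-2 against 14.8, 12.5 and 13.4 RPM in wild type (log2 difference 0.50, SE 0.14, limma adjusted p = 0.0419). Its twin miR5642a, with the same 20 bases, was at 68.2, 62.5 and 61.6 RPM in sos2-2 against 134, 67.2 and 97.4 RPM in wild type. The difference of the twin was −0.58, of the opposite sign, and was not called (limma adjusted p = 0.0862). The call of miR5642b was lost in 12 of 17 alternatives. Their sum was 83.8 ± 5.54 RPM in sos2-2 and 113 ± 34.9 RPM in wild type. Of the 35 groups of identical sequence with at least 2 tested members, 10 held members with differences of opposite sign.

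Several miRNAs with known roles lay near the threshold. miR863-5p is the 5p product of the hairpin whose 3p product, miR863-3p, is known to target SE. It was at 292, 306 and 299 RPM in sos2-2 against 351, 479 and 397.6 RPM in wild type, with all mutant libraries below (log2 difference −0.44, SE 0.13, limma adjusted p = 0.0525). miR863-3p averaged 46.5 ± 3.40 RPM in sos2-2 and 50.7 ± 5.38 RPM in wild type (log2 difference −0.12, limma adjusted p = 0.797). miR172b-3p, which lowers AP2-like regulators of flowering and acts later in the same age pathway as miR156, was at 111, 80.9 and 109 RPM in sos2-2 against 122, 158 and 136 RPM in wild type (log2 difference −0.47, SE 0.14, limma adjusted p = 0.0568). miR845b and miR156f-3p had differences as large as those of called miRNAs, 0.71 and 0.66, but overlapping groups. miR845b was at 1.12, 5.41 and 2.39 RPM in sos2-2 against 1.13, 1.14 and 1.30 RPM in wild type, so a single mutant library, replicate 2, was far above the rest. miR156f-3p was at 5.09, 12.96 and 9.58 RPM against 2.68, 7.25 and 6.45 RPM. Over its alternatives the adjusted p of miR863-5p crossed the threshold in 7 of 17 and that of miR172b-3p in 5 of 17.

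Among the lists of families, developmental regulators had 93 tested miRNAs, of which 8 were called higher and none lower; 7 of these were miR156 and 1 was miR164c-3p. Over all tested miRNAs 3.75% were called higher, and 6 of the 8 repeat the miR156 sequence that was not called when its loci were summed. Their median difference was 0.04, beside 0.01 over all tested miRNAs. The phosphate and sulfate list, of miRNAs that respond to those nutrients, had no call among 14 and a median of 0.21. In it 12 members were above 0, beside 154 of 293 over all tested miRNAs. From this list, miR395d, which lowers ATP sulfurylases and a sulfate transporter, was at 8.05, 7.78 and 7.13 RPM in sos2-2 against 3.76, 5.69 and 5.97 RPM in wild type (log2 difference 0.51, SE 0.16, limma adjusted p = 0.0568). miR395a averaged 7.76 ± 1.11 RPM in sos2-2 and 5.50 ± 0.804 RPM in wild type, with no overlap but no call. It shares its sequence with miR395d and miR395e, so these repeat the same molecules. Their sum was 23.4 ± 1.42 RPM in sos2-2 and 16.8 ± 2.51 RPM in wild type (log2 difference 0.46, limma adjusted p = 0.0837). miR395b, miR395c and miR395f also share a sequence with each other, as do miR399b and miR399c-3p, so the 12 members above 0 are not independent.

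The copper list (miR397, miR398, miR408 and miR857) had no call among 11, with differences from −0.25 for miR398c-3p to 0.23 for miR408-3p. Of the miRNAs that act on the small RNA machinery itself (miR162, miR168 and miR403), none of 10 was called. The highest of them was miR168b-3p, with 65.4 ± 4.68 RPM in sos2-2 and 50.8 ± 4.64 RPM in wild type (log2 difference 0.36, limma adjusted p = 0.136), and miR168a-3p followed with 227 ± 11.9 and 198 ± 17.5 RPM. Triggers of secondary siRNAs had no call among 15, and their extremes were the 2 strands of miR472, at −0.22 for 3p and 0.18 for 5p. The young families had 158 tested miRNAs, with 3 called higher, 2 lower and a median of −0.04, beside 3.75% higher and 0.683% lower over all tested miRNAs.

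The 10 most abundant miRNAs made up 66.1% ± 1.25 of the listed RPM in sos2-2 and 66.6% ± 0.348 in wild type (SD, n = 3 each), and none was called. miR158a-3p, the most abundant, was at 35792, 32809 and 32346 RPM in sos2-2 against 25579, 34227 and 31337 RPM in wild type. The groups overlapped in RPM. As a share of the listed miRNAs it was 32.7% ± 0.465 in sos2-2 and 30.8% ± 0.214 in wild type, and the 3 mutant values lay above the 3 wild-type values (exact two-sided permutation p = 0.1, the smallest this design allows). miR159a averaged 9791 ± 562 RPM in sos2-2 and 9884 ± 1657 RPM in wild type, and miR159b-3p 7852 ± 640.1 and 7724 ± 1329 RPM. The others, miR396b-5p, miR403-3p, miR408-3p and the strands of miR398b and miR398c, had log2 differences between −0.25 and 0.23.

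Sequence classes differed little. The tested miRNAs that begin with U, the usual first base of ARGONAUTE1 guides, had a median difference of 0.01. The 70 that begin with A had a median of −0.02, the 29 with C one of 0.06 and the 30 with G one of 0.07. The 212 miRNAs of 21 bases had a median of 0.02 and the 34 of 20 bases one of 0.08, and 8 of the 11 miRNAs called higher were 20 bases long, namely the 7 of miR156 and miR5642b. By level, 2 were called higher and 2 lower among the 86 miRNAs with a mean of 1 to 5 RPM over all 12 libraries. Another 3 were higher among 112 from 5 to 50 RPM. From 50 to 500 RPM 4 were higher among 61, and above that 2 among 34. Over all tested miRNAs, 3.75% were called higher and 0.683% lower. All calls from 50 RPM up were entries of the identical miR156 sequence, which was not called when its loci were summed. The median size of the difference, without its sign, was 0.14, 0.12, 0.14 and 0.08 in these 4 ranges of level.

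After NaCl, in libraries not shared with the MS comparison, 10 of 293 miRNAs were called between the genotypes (3.41%), 5 higher and 5 lower in sos2-2 (1.71% each), and 3 of them were among the 13 of MS. These 3, miR774a, miR843 and miR3932a, were 23.1% of the calls on MS and 30% of those in NaCl. Their differences were −2.67, 0.99 and −0.63 on MS and −2.88, 1.03 and −0.59 in NaCl. All of the 13 had the same sign in both media, as did 184 of all 293, but 6 of the 13 are the same miR156 sequence and miR5633 was close to 0 in NaCl. The median difference of all tested miRNAs was −0.14 in NaCl, against 0.01 on MS. For miR156a-5p the difference was 0.60 on MS and 0.14 in NaCl, where it averaged 468 ± 31.7 RPM in sos2-2. For miR5633 it was 0.58 and 0.0047. miR863-5p, at −0.44 on MS, was called in NaCl at −0.58 (limma adjusted p = 0.0108). The test of the difference between the media, the interaction, called none of 293 miRNAs with limma, where 18 had an unadjusted p under 0.05; edgeR called 0 and DESeq2 called 2. For miR156a-5p the interaction had an unadjusted p of 0.0452 and a limma adjusted p of 0.583, so its smaller difference in NaCl did not pass that test.

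**Figure D4:**
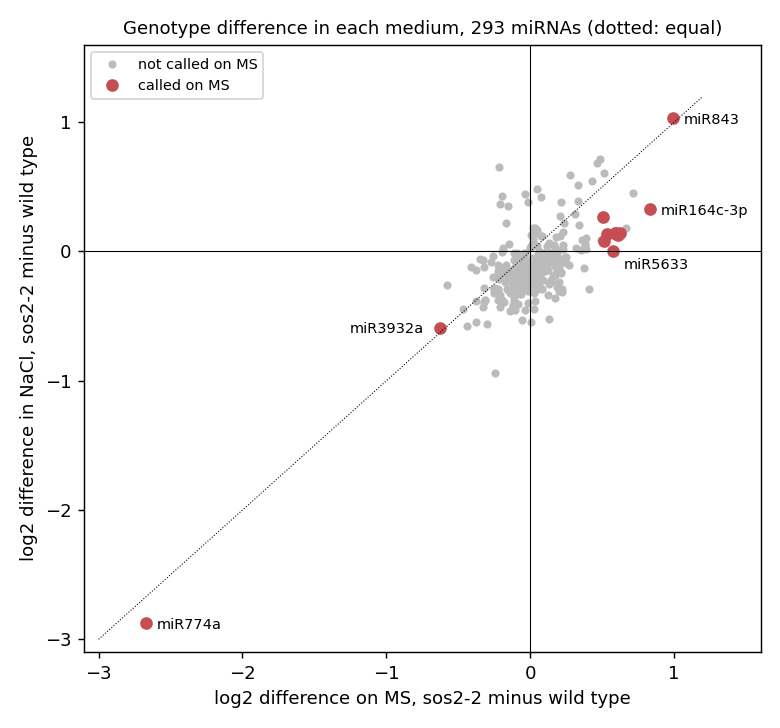
Log2 differences, sos2-2 minus wild type, of the 293 tested miRNAs on MS (horizontal) and in NaCl (vertical), with the 13 called on MS in red and equality as a dotted line. miR774a, miR843 and miR3932a lie near the line, and the miR156 miRNAs lie to the right of it at 0.51 to 0.62 on MS and 0.08 to 0.14 in NaCl.

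Of 94 listed target genes, 71 averaged at least 1 TPM and were tested in the mRNA libraries, of which sos2-2 had 2 and wild type 3 on MS. With limma on log2(TPM + 1), 2 targets were called, both lower in sos2-2, beside 462 of 16564 genes (2.79%), 258 of them higher (1.56%) and 204 lower (1.23%). The median target difference was −0.23, and that of all genes was −0.05. The list was drawn up with results of these data known, and mRNA levels of the 5 libraries are relative to totals in which RBCS1A, but not every shoot marker, was lower in sos2-2.

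The sites that carry these pairs are printed 5′ to 3′ from spliced RefSeq transcripts, with capitals for Watson-Crick pairs to the miRNA without a gap. They are shown for the targets of called miRNAs, of miR863-3p and of miR319, whose targets were the only ones called.
AT3G19890 site for miR774a: GAUGGCCAUAUGGGUAACCAc
AT3G13830 site for miR843: UuCAAUGAAGCUCGACCUAAA
SPL9 site for miR156a-5p: GUGCUCuCUCUCUUCUGUCA
SE site for miR863-3p: AUUAUGUCUUGUUcCUCcCAA
TCP4 site for miR319a: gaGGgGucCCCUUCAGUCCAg
These lie at chr3:6915334-6915354 on the minus strand, chr3:4554152-4554172, chr2:17589066-17589085, chr2:11576469-11576489 and chr3:5063300-5063320, the last 4 on the plus strand. The site for miR774a paired at 20 of 21 positions and that for miR843 at 20 of 21 with a G:U wobble at the remaining one. Neither F-box gene gave a readout: AT3G13830 was at 0 TPM in all 5 libraries, and AT3G19890 was at 0 in both sos2-2 libraries and at 0.0553, 0 and 0 TPM in wild type.

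Of the 11 listed SPL targets of miR156, 5 were tested and none was called. SPL6 was at 0.759 and 0.901 TPM in sos2-2 against 1.95, 1.80 and 1.93 TPM in wild type (log2 difference −0.66, SE 0.19, limma adjusted p = 0.0603). SPL9 was at 0.906 and 0.7003 TPM against 1.45, 0.947 and 1.33 TPM, and SPL13B at 1.92 and 2.00 TPM against 2.84, 3.01 and 2.61 TPM. In these 3 genes the mutant libraries lay below all wild-type libraries, which also held for 22.7% of all genes. SPL2 and SPL4 overlapped between the genotypes, and the 6 others were below the filter.

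Of the miR172 targets, TOE1 was at 18.7 and 20.3 TPM in sos2-2 against 15.3, 11.4 and 15.1 TPM in wild type, above without overlap. SNZ, at 3.27 and 4.69 TPM against 6.62, 9.76 and 6.23 TPM, and TOE2, at 7.07 and 6.34 TPM against 10.1, 8.40 and 10.4 TPM, lay below without overlap, while AP2 and SMZ overlapped. Of all genes, 16.8% lay above and 22.7% below without overlap. These 5 repressors of flowering thus did not share a direction, and none was called. The 4 listed miR395 targets of sulfate uptake and assimilation had differences below 0, from −0.20 for APS1 to −0.63 for APS4, without a call. Most genes lay below 0 as well: differences were above 0 for 7279 of 16564 genes and for 22 of the 71 tested targets. Of the miR164 targets, NAC1 and ORE1 had overlapping groups (differences 0.14 and 0.35), and CUC1 and CUC2 were below the filter.

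The 2 called targets were TCP4 and TCP3, miR319 targets that promote leaf maturation. TCP4 was at 35.7 and 24.97 TPM in sos2-2 against 89.3, 58.3 and 77.5 TPM in wild type (log2 difference −1.28, SE 0.28, limma adjusted p = 0.0252). TCP3 was at 32.8 and 21.3 TPM against 83.2, 52.4 and 70.9 TPM (log2 difference −1.32, SE 0.34, limma adjusted p = 0.0445). The 3 others, TCP2, TCP10 and TCP24, lay below wild type in both mutant libraries without a call, as 22.7% of all genes lay below without overlap. miR319a itself was not called: it averaged 469 ± 12.8 RPM in sos2-2 and 430.3 ± 76.8 RPM in wild type (log2 difference 0.14, limma adjusted p = 0.740). The calls depended on single libraries, since 0 targets were called without wild-type replicate 1 or 3, and 1 without wild-type replicate 2. Calls over all genes fell as well whichever library was left out, so the loss was not particular to TCP3 and TCP4. Leaving out a mutant library leaves 1 in sos2-2, too few to read a call.

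Among genes of the miRNA machinery that are themselves targets, DCL1, the target of miR162, was at 6.30 and 5.13 TPM in sos2-2 against 3.06, 1.85 and 2.72 TPM in wild type. Both mutant libraries lay above the wild-type libraries, as 16.8% of all genes did. The log2 difference of 0.93 (SE 0.25) was not called (limma adjusted p = 0.0536). SE was at 14.0 and 11.6 TPM against 16.1, 13.8 and 17.9 TPM (log2 difference −0.29, limma adjusted p = 0.504), and AGO1, the target of miR168, averaged 13.9 ± 1.87 TPM in sos2-2 (n = 2) and 13.4 ± 1.59 TPM in wild type (n = 3).

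**Figure D5:**
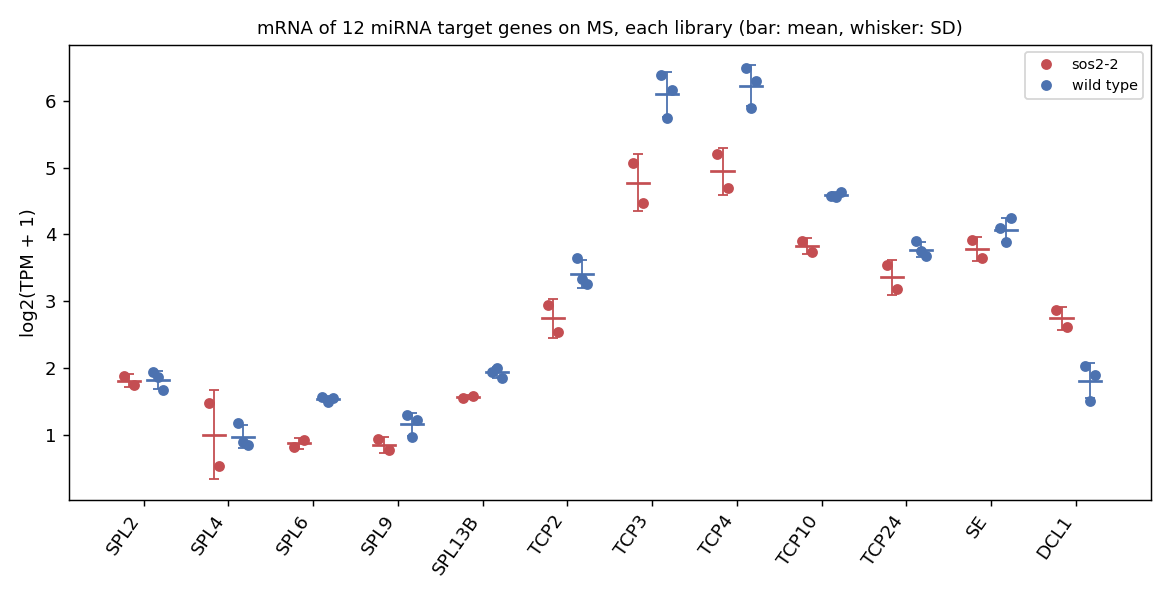
mRNA levels of 12 target genes on MS as log2(TPM + 1), with the 2 sos2-2 libraries in red and the 3 wild-type libraries in blue; bars are means and whiskers SD. TCP3 and TCP4 were called lower in sos2-2. DCL1, which was not called, is the only gene shown whose mutant libraries both lie above all wild-type libraries, as 16.8% of all genes did.

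The remaining 135 miRNAs were not tested. Their means over the 6 MS libraries had a median of 0.140 RPM and a maximum of 1.07 RPM, for miR2111a-3p, and 21 of them had no read on MS in either genotype. Their values rested on at most 27 reads per library. With no filter on low values, limma called 7 of 417 miRNAs, of which 5 were among the 13 given above.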

How the data were processed

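The authors deposited the small RNA data as RPM for each mature miRNA. Cutadapt, featureCounts 1.6.4 and the build TAIR10 are named per the submitters' processing notes; the aligner and the treatment of reads that fit several loci are not given in the sources used here. For mRNA the authors deposited TPM by transcript, with kallisto 0.46.2 among the tools per the submitters' processing notes, and these were summed by gene; TPM keeps no depth. Columns of the small RNA table give genotype, medium and a number, and were assigned to groups by these. All 4659 RPM values above 0 lay within 0.1 of a whole number of reads, so whole reads were recovered. The tests used limma 3.58.1 with an intensity trend (without it for arm balances) on log2(value + 1) over all 12 small RNA or 11 mRNA libraries, for features with a mean of at least 1. That design shares the spread over all 4 groups. P-values were adjusted by Benjamini-Hochberg over all features tested and called under 0.05. Alternatives used other pseudocounts, filters and scalings, edgeR 4.0.16 and DESeq2 1.42.0 on recovered reads, and sums of identical sequences. Single MS libraries were also left out. Scripts were tested on simulated data. Named miRNAs were those called, the 5 highest and 5 lowest, the 10 most abundant, the 2 with the smallest p of each list, the miR863 arms, and family mates; named targets belonged to their families. The members and lists were chosen with earlier results of these data known. Sequences and coordinates are from RefSeq TAIR10.1, whose nuclear chromosomes are those of TAIR10. The replicate numbers were checked for pairing, which was not settled, and the main tests left the libraries unpaired.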

Additional observations from a re-analysis of the deposited data

How the results depend on the processing

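The 13 miRNA calls on MS became 7 with no filter on low values, 1 with a filter at a mean of 5 RPM, 3 with only the 6 libraries of the comparison, 24 after rescaling to the listed total, 23 with edgeR, 24 with DESeq2 and 3 with identical sequences summed, and ranged from 2 to 16 with a library left out. The last sum and edgeR on whole-library totals (15 calls) were added after seeing the data. miR774a stayed called wherever it was tested. Families went from 2 calls to 5 with no filter, 0 at 5 RPM, 9 with rescaling, 9 with edgeR, 10 with DESeq2, and 1 to 7 with a library left out. The filter at 5 RPM took both called families, miR774 and miR843, out of the test. It left 13 families with an unadjusted p under 0.05 in limma. Among the miRNAs it took out 2 called higher and 2 called lower. Arm balances went from 4 to 10 with the filter at 5 RPM, 7 with the libraries of the comparison only, and 2 to 4 with a library left out. Calls in NaCl went from 10 to 4 with the filter at 5 RPM, 18 with edgeR and 17 with DESeq2. Interaction calls went from 0 to 2 with DESeq2. With an MS library left out, calls in NaCl ranged from 7 to 14 and interaction calls from 0 to 1. No NaCl library was left out, so these ranges do not show how far the calls depend on the NaCl libraries. Target calls went from 2 to 0 with no filter, 9 after nuclear genes alone were rescaled, and 0 to 1 with a library left out, and calls over all genes from 462 to 12, 1623, and 6 to 155. Beyond the members that a filter took out, the cause of these moves was not tested.

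Deviations on MS of libraries with the same replicate number correlated at 0.195, 0.152 and −0.021. Between different numbers the correlations ran from −0.184 to 0.053. These values do not settle whether the numbers pair the libraries, and the labels do not say what a number marks. With the replicate block, calls on MS were 19, families 3, arm balances 6, NaCl 17 and the interaction 0. The listed total, 4441 RPM higher in sos2-2, ranged from −2991 to 10527 RPM with a library left out, the lowest without wild-type replicate 1. Signs turned for values near 0 without a call: miR159b-3p −0.036 and miR398b-5p −0.056 after rescaling, miR398b-5p −3.74e-05 with edgeR, and, with a library left out, miR159a between −0.14 and 0.10, miR159b-3p between −0.10 and 0.15 and miR398b-5p between −0.12 and 0.11. Low levels limit the precision: 109 of the 293 tested miRNAs had under 100 reads in at least 1 MS library.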
